A study of Mus musculus with 32 samples.

Results

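The respiratory chain is built from subunits encoded in 2 genomes, and the transcripts of both were followed here in microglia, the resident macrophages of the brain, sorted from the mouse cortex after a stab wound. Members were the protein-coding genes whose symbols name a subunit of complexes I to V (Nduf, Sdh, Uqcr, Cox4 to Cox8 and Atp5 symbols, and the mitochondrial mt-Nd, mt-Co, mt-Atp and mt-Cytb genes). This gave 99 of 55385 genes, 86 of them nuclear and 13 mitochondrial. By complex, the nuclear members number 38 in complex I, 4 in II, 8 in III, 18 in IV and 18 in V, and the mitochondrial ones 7, 0, 1, 3 and 2. A further 13 symbols fit the names but are annotated as processed pseudogenes, and they were left out.

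Both groups of cells were EYFP+ (yellow fluorescent) cells of adult C57BL/6 mice heterozygous for Cx3cr1CreER, a tamoxifen-inducible recombinase driven by the fractalkine receptor gene. Tamoxifen was given at 180 mg/kg on 5 consecutive days, starting at 8 to 10 weeks of age, before the wound was made. The first group came from the wound at day 1, 4, 7 or 14 and the second from the matching site of the other, non-injured hemisphere on the same days, in females and in males. No mouse without a wound was used as the comparison, and the marking covers every cell in which Cx3cr1 was active at the time of tamoxifen, not microglia alone. Each of the 16 combinations of day, sex and side was deposited as 2 columns, which the series text calls biological replicates but which differed by little more than counting noise (median chi-square per gene 0.476 to 0.639, against 0.455 for noise alone). The columns were summed, which left 16 libraries in 8 pairs of a wound and a non-injured library of the same day and sex. The labels do not tie samples to animals, so p-values measure the spread between these samples only, which may be technical. In the fit of the summed columns this spread is that between the female and male pair of a day, pooled over the 4 days. It therefore includes any difference of the injury effect between the sexes.

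Complex I takes electrons from NADH and complex II takes them from succinate, as part of the citric acid cycle. Both hand them to ubiquinone, complex III passes them to cytochrome c, complex IV gives them to oxygen, and complex V uses the proton gradient to make ATP. The mitochondrial genome encodes the membrane core of complexes I, III, IV and V, the nuclear genome encodes all of complex II and the remaining subunits, and the assembly of complexes I, III, IV and V needs both. Resting microglia use oxidative phosphorylation, and inflammatory activation of macrophages is known for a turn towards glycolysis.

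Depth ran from 20863982 to 55378788 counts a library, with 14737 to 40975 genes detected. Microglial markers (10 genes, all detected) summed to 8030 to 38171 CPM (counts per 1000000 after TMM scaling) at the wound and 11136 to 71296 CPM on the non-injured side, and the wound library had the higher sum in 1 of 8 pairs. Both day 4 male libraries stand apart. They hold heart and skeletal muscle transcripts such as Myh6 and Actc1, whose list of 6 genes summed to 359.5 CPM at the wound and 538.4 CPM on the other side, against at most 8.71 CPM in any other library. Neuronal markers (8 genes) had less at the wound in 8 of 8 pairs. They summed to 8.52 to 151.0 CPM (median 33.2) at the wound and to 51.9 to 2813 CPM (median 149) on the non-injured side, with 2813, 659 and 569 CPM in the non-injured libraries of day 4, day 7 and day 14 males. Monocyte markers (8 genes) were higher at the wound in each pair, at 177 to 2015 CPM (median 376) at the wound and 4.23 to 115 CPM (median 23.8) on the other side. Summed neutrophil markers (7 genes) likewise exceeded their partners in 8 of 8 pairs, with medians of 32.3 CPM at the wound and 2.25 CPM on the other side. Summed markers of border-associated macrophages (7 genes) did so in 7 of 8, with medians of 828 CPM at the wound and 303 CPM on the other side. Genes of this last list did not all follow its sum. In day 14 females Ms4a7 was at 640 CPM at the wound and 78.5 CPM on the other side, but Mrc1 at 32.3 and 180 CPM. In day 4 females Mrc1 was at 162 and 314 CPM and Cd163 at 9.20 and 52.4 CPM. In sorted bulk samples, fewer cells of a type and less RNA per cell cannot be told apart.

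The first comparison set the genomes against each other. In every pair, the wound library held fewer transcripts of the mitochondrial members per transcript of the nuclear members than the non-injured library. Summed TPM (transcripts per 1000000, which corrects for length) of the 13 mitochondrial genes stood to that of the 86 nuclear genes in a ratio of 0.452 at the wound and 1.72 on the non-injured side in day 1 females, and 1.98 and 3.97 in day 1 males. At day 4 the ratio was 1.49 at the wound and 3.02 on the other side in females, and 2.86 and 8.09 in males. The wound libraries thus lay below their partners on both days and in both sexes. At day 7 it was 1.29 at the wound and 3.03 on the other side in females, and 2.21 and 5.17 in males. At day 14 the sides were closest, at 5.17 and 6.85 in females and 3.40 and 4.32 in males. The wound value was 0.263 to 0.787 times that of its partner (mean 0.500 ± 0.184, SD, n = 8 pairs), and lower in 8 of 8 pairs. The ranges of both sides overlap when the pairing by day and sex is ignored. As the members were chosen with earlier results of these data known, no p is given for this contrast.

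**Figure D1:**
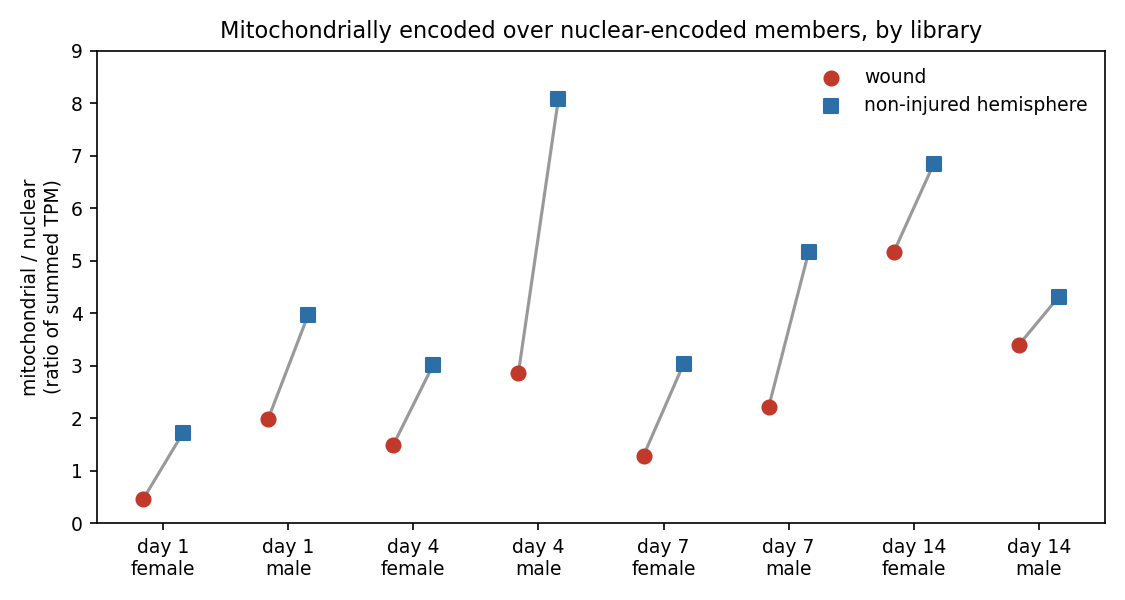
Ratio of the summed TPM of the 13 mitochondrially encoded members to that of the 86 nuclear-encoded members (vertical axis), for each day-by-sex pair (horizontal axis); circles are wound libraries, squares non-injured libraries, and grey lines join a pair. Each circle lies below its square, from 0.452 against 1.72 in day 1 females to 3.40 against 4.32 in day 14 males.

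The same contrast was taken gene by gene as the median log2 ratio, wound over non-injured, with 1 CPM added. Of the nuclear members, 84 passed the filter on low counts (a second Atp5o identifier and Cox8c did not), and all 13 mitochondrial members did. The nuclear median minus the mitochondrial median was 1.93 and 1.03 in day 1 females and males, 1.07 and 1.73 at day 4, 1.12 and 1.27 at day 7, and 0.51 and 0.44 at day 14. It was above 0 in 8 of 8 pairs, with a mean of 1.14 ± 0.52 (SD, n = 8 pairs), 1.16 ± 0.59 in the 4 female and 1.12 ± 0.53 in the 4 male pairs. Without the day 4, day 7 and day 14 male pairs, whose non-injured libraries hold most neuronal marker RNA, it was 1.13. Which genome made the difference varied between pairs and with the scale. By CPM, in day 4 and day 7 females both medians were above 0 (1.70 nuclear and 0.63 mitochondrial at day 4, 1.83 and 0.71 at day 7), whereas in day 4 males the nuclear median was -0.09 and the mitochondrial one -1.81. In day 1 pairs they lay on opposite sides of 0, at 1.21 and -0.73 in females and 0.62 and -0.41 in males. By TPM, the wound library had the higher nuclear sum in 5 of 8 pairs and the higher mitochondrial sum in 1 of 8. In day 7 females the mitochondrial sum was 18041 TPM at the wound and 24822 TPM on the other side, the opposite direction to CPM. Neuronal marker sums were higher on the non-injured side in the same 8 pairs, and their part in the contrast was not tested.

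**Figure D2:**
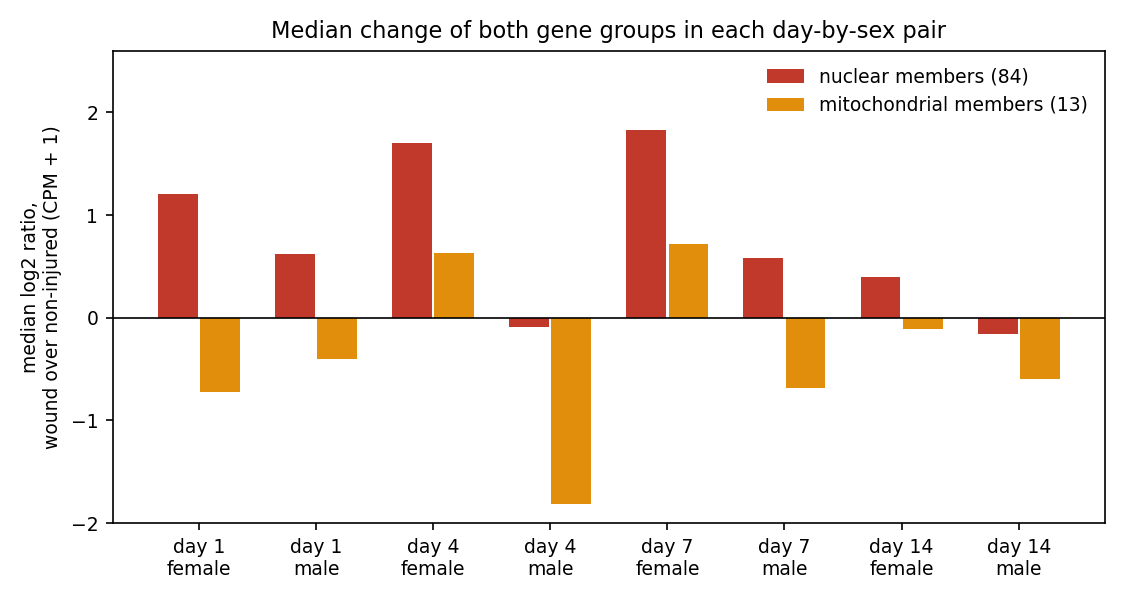
Median log2 ratio, wound over non-injured (vertical axis, 1 CPM added), over 84 nuclear members (red) and 13 mitochondrial members (orange) in each of the 8 pairs (horizontal axis). The red bar ends above the orange bar in every pair, and the orange bar is above 0 in the day 4 and day 7 female pairs only.

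No mitochondrial member was called different at the wound by edgeR's quasi-likelihood test on the mean of the 4 day effects (0 of 13 at a Benjamini-Hochberg adjusted p under 0.05; 1 of 13 at an unadjusted p under 0.05). Over all 28597 genes tested, 7.96% were called lower and 7.76% higher. The 13 fitted changes were all below 0, from -0.66 to -0.05 on the log2 scale (median -0.33), although mt-Nd3 and mt-Co3 were above 0 (0.043 and 0.031) when the low-count filter was dropped. The median over all genes was -0.32, and with limma on log2 TPM the mitochondrial median was -0.80. In the same test DESeq2 called mt-Nd2 lower (log2 -0.80, adjusted p = 0.0146), and limma on log2 TPM called mt-Nd2, mt-Co2 and mt-Nd6 lower (log2 -1.10, -0.97 and -0.80, adjusted p = 0.0213, 0.0411 and 0.0278). The size of these changes rests on the day 4 pairs. Without day 4 females, 7 of 13 were called lower, with log2 changes of -0.92 to -0.66 and a median of -0.68. The median over all genes was then -0.21, and shares of all genes called lower are not given for these other fits. Without day 4 males 0 were called, the median was -0.017, and mt-Nd3, mt-Co3, mt-Atp8, mt-Co1 and mt-Nd4l were above 0. The median was 0.057 in female pairs alone, -0.93 in male pairs alone and 0.23 without the day 4, day 7 and day 14 male pairs, with 0 called in each.

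mt-Nd2, a core membrane subunit of complex I, lay between 169 and 2731 TPM at the wound (median 767) and between 551 and 8969 TPM on the non-injured side (median 1425). Its wound value lay below its partner in 8 of 8 pairs by TPM and in 6 of 8 by CPM, and its fitted change was not called (log2 -0.66, SE 0.27, adjusted p = 0.139). Of the other complex I genes, mt-Nd4 had -0.50 (SE 0.30), mt-Nd1 -0.34 (SE 0.28), mt-Nd5 -0.33 (SE 0.27) and mt-Nd6, the gene on the light strand, -0.31 (SE 0.25) on the log2 scale. mt-Nd3 was near 0, at -0.05 (SE 0.39). mt-Nd4l, at -0.29 (SE 0.82), had 0 TPM in 3 wound libraries and 1 non-injured library.

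mt-Cytb, the catalytic subunit of complex III that the mitochondrion itself makes, lay between 3875 and 35171 TPM at the wound (median 5925) and between 4421 and 41779 TPM on the other side (median 9908). Its wound value lay below its partner in 8 of 8 pairs by TPM but in 6 of 8 by CPM, with a fitted log2 change of -0.35 (SE 0.25, adjusted p = 0.430). Of the complex IV core subunits, mt-Co2 had -0.50 (SE 0.26), mt-Co1, which holds the oxygen-binding site, -0.22 (SE 0.39) and mt-Co3 -0.05 (SE 0.37). Of the complex V genes, mt-Atp6 of the proton channel had -0.42 (SE 0.28) and its overlapping neighbour mt-Atp8 -0.27 (SE 0.24). Exact two-sided sign-flip tests over the 8 pairs gave p from 0.0703 (mt-Nd2) to 1.0 (mt-Nd3) for the 13 genes, where 8 pairs can go as low as 0.00781. Counts of mt-Atp6 and mt-Atp8, and of mt-Nd4 and mt-Nd4l, overlap on the same strand. Those of mt-Nd5 and mt-Nd6 overlap on opposite strands, which this protocol does not keep apart, so each of these values is uncertain. The shared stretches are short, at positions 7927 to 7969, 10167 to 10173 and 13552 to 13565 of the mitochondrial genome.

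The mitochondrial genes were also set against the nuclear median of the same pair. mt-Nd1, mt-Nd2, mt-Nd3, mt-Nd4, mt-Nd5, mt-Nd6, mt-Cytb, mt-Co1, mt-Co2, mt-Atp6 and mt-Atp8 were each below the nuclear median in 8 of 8 pairs, with mean log2 differences of -1.42 to -0.76. mt-Co3 was below it in 7 pairs and mt-Nd4l in 6. The make-up of the mitochondrial transcripts varied between pairs and, for several genes, between the sides. mt-Cytb made up 48.6% of the summed mitochondrial TPM at the wound and 38.6% on the other side in day 1 females, and 45.7% and 47.0% in day 14 females. In day 4 males it made up 9.75% and 10.5%, and in day 14 males 14.7% and 12.5%. mt-Atp6 made up 7.20% and 7.65% in day 7 females, but 37.5% and 36.2% in day 4 males. mt-Co1 made up 14.2% at the wound and 8.20% on the other side in day 4 females, and 13.5% and 8.29% in day 7 females. mt-Atp6 made up 13.8% and 22.3% in day 1 females, mt-Nd1 22.5% and 17.8% in day 1 males, and mt-Atp8 20.5% and 14.7% in day 7 males. Over the 8 libraries of each side, the median share of mt-Cytb was 18.8% at the wound and 21.5% on the non-injured side, and that of mt-Atp6 29.6% and 29.1%.

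**Figure D3:**
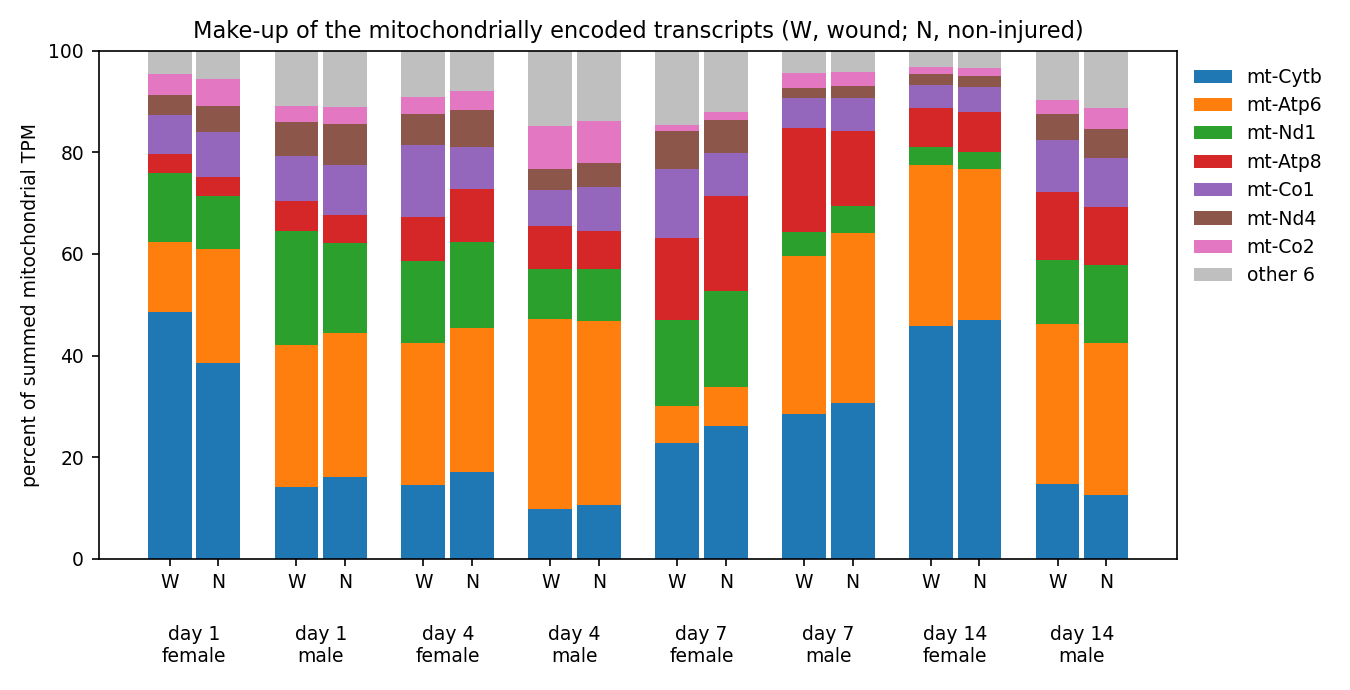
Share of each mitochondrial gene in the summed mitochondrial TPM (vertical axis, percent) in the 16 libraries, drawn in pairs by day and sex with the wound library (W) left of the non-injured one (N). At the wound mt-Cytb ranges from 9.75% in day 4 males to 48.6% in day 1 females, and mt-Co1 is larger at the wound in day 4 and day 7 females (14.2% against 8.20%, and 13.5% against 8.29%).

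The second comparison asked which nuclear members differed at the wound. On the mean of the 4 day effects, 28 of 84 nuclear members rose and 0 fell (edgeR quasi-likelihood test, adjusted p under 0.05), against 7.76% of all genes tested that rose. Those that rose did so by 0.83 to 1.66 on the log2 scale. The median change over the 84 members was 0.80, that over all genes -0.32, and 80 of the 84 had a change above 0. With limma on log2 TPM the nuclear median was 0.33, against -0.17 over all genes. In single pairs, 13 of 84 members exceeded their partners in 8 of 8 pairs, against 5.11% of all genes, and 8.7% of all genes were higher in 0 of 8. Monocyte and neutrophil marker sums were higher at the wound in the same 8 pairs. Those of border-associated macrophages were higher in 7, though single genes of that list went the other way in some pairs. The part of these RNAs in the nuclear changes was not tested. The count of 28 rests on few libraries. With day 1 females left out it was 0 (2.23% of all genes), and with day 1 males or day 7 females left out 1. It was 8 after dropping day 7 males or day 14 females, 13 after dropping day 14 males, 19 after dropping day 4 females and 61 of 83 after dropping day 4 males (6.17% of all genes). In these 8 fits the 28 genes kept changes above 0, and their median ran from 0.54 to 1.01 over all nuclear members tested. DESeq2 called 48 higher (9.39% of all genes), all 28 among them, and limma on log2 TPM called 13 higher, 12 of them among the 28. Shares over all genes are not given for limma and for the other fits with 1 pair left out. Without the day 4, day 7 and day 14 male pairs, 76 of 83 were called higher, against 10.9% of all genes.

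**Figure D4:**
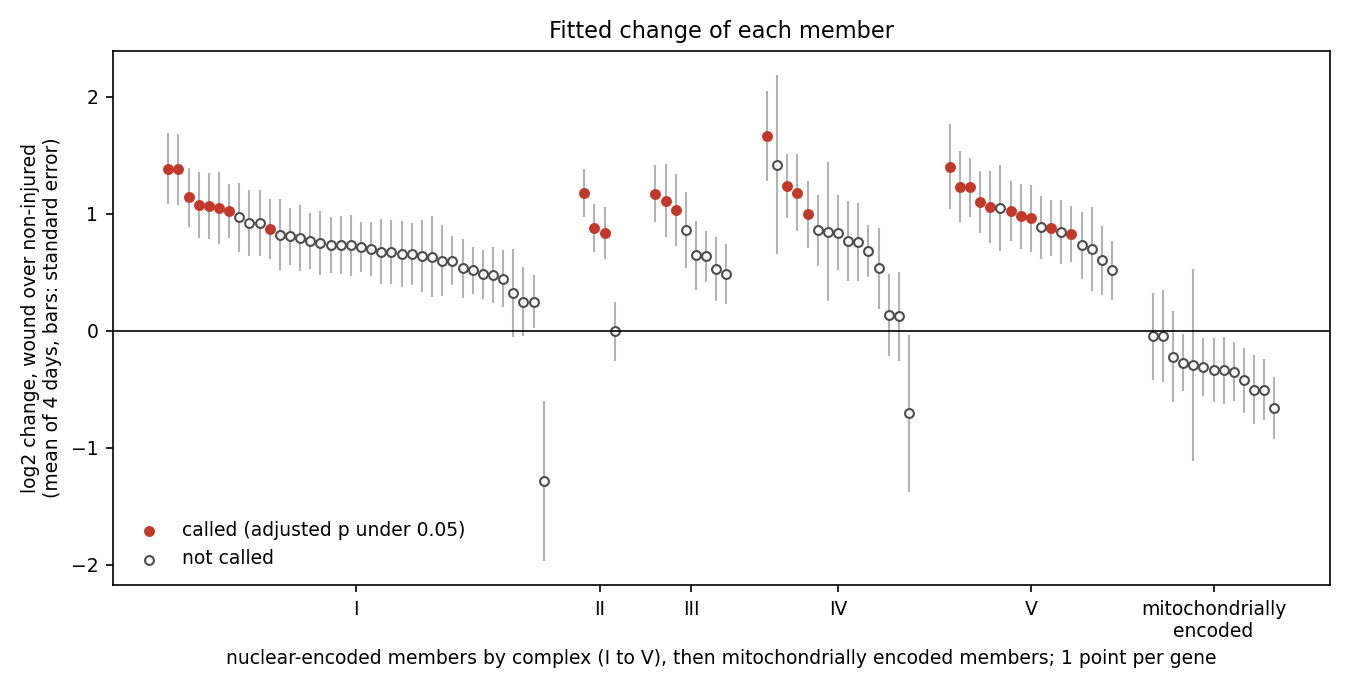
Fitted log2 change, wound over non-injured, on the mean of the 4 day effects (vertical axis; bars are standard errors), 1 point per gene, with nuclear members by complex and then the 13 mitochondrial members (horizontal axis). Filled points were called (28, all above 0) and open ones were not; Cox7b2 and Cox8b, near 0 TPM in most libraries, are not drawn.

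In complex I, 8 of 38 nuclear members rose, and they were small accessory subunits, which surround the catalytic core. Ndufc1 lay between 93.7 and 382 TPM at the wound (median 139) and between 28.6 and 331 TPM on the other side (median 70.4), with the wound value the higher in each of the 8 pairs. Its log2 change was 1.39 (SE 0.30, edgeR adjusted p = 0.0148). Ndufa1, a membrane-anchored accessory subunit encoded on the X chromosome, had a median of 314 TPM at the wound and 186 TPM on the other side. It rose by 1.38 (SE 0.30, adjusted p = 0.0144), and Ndufa2 and Ndufb7 rose by 1.14 and 1.02 (SE 0.25 and 0.23), each in 8 of 8 pairs by CPM. Ndufb6 rose by 1.07 (SE 0.29, adjusted p = 0.0328) and Ndufa12, Ndufs4 and Ndufs6 made up the rest. Ndufs3, Ndufs7, Ndufs8 and Ndufv2, which carry iron-sulfur clusters or lie beside them in the catalytic arm, had changes of 0.71, 0.48, 0.60 and 0.73 (SE 0.21, 0.21, 0.21 and 0.25) and were not called. Ndufv1, the subunit that binds NADH, had the largest p of the nuclear members of the complex, with medians of 52.8 TPM at the wound and 74.6 TPM on the other side and a change of 0.25 (SE 0.30, adjusted p = 0.685).

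Complex II is encoded in the nucleus alone. Its iron-sulfur subunit Sdhb and both membrane anchors, Sdhc and Sdhd, rose, while its flavoprotein Sdha, which oxidises succinate, was not called. Sdhd (chromosome 9, 50596357 to 50603812, minus strand, GRCm38) had the smallest p of all 97 members tested. It lay between 96.0 and 182 TPM at the wound (median 131) and between 57.6 and 132 TPM on the other side (median 82.8), exceeded its partner in 8 of 8 pairs and had a log2 change of 1.18 (SE 0.21, edgeR adjusted p = 0.00511). Sdhb rose by 0.88 (SE 0.21, adjusted p = 0.0196) and Sdhc by 0.84 (SE 0.22, adjusted p = 0.0319). Sdha (chromosome 13, 74322254 to 74350280, minus strand) lay between 53.4 and 179 TPM at the wound (median 114) and between 122 and 192 TPM on the other side (median 155). On the TPM scale the wound value was the lower in 8 of 8 pairs, and on the CPM scale in 4 of 8, with a fitted change of -0.01 (SE 0.26, adjusted p = 1.0) whose sign turned with the filter and with single pairs left out. The share of Sdha in the summed TPM of the 4 subunits, which does not depend on the scaling between libraries, fell short of its partner in 8 of 8 pairs. It was 9.13% to 22.2% at the wound (median 15.5%) and 13.6% to 34.7% on the other side (median 28.8%), for example 12.8% at the wound and 24.6% on the other side in day 1 females, and 21.2% and 30.5% in day 14 males. Sdha is also the longest of the 4 transcripts by annotated exons (4126 bases, against 1231 for Sdhd), and the part of transcript length in this was not tested.

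**Figure D5:**
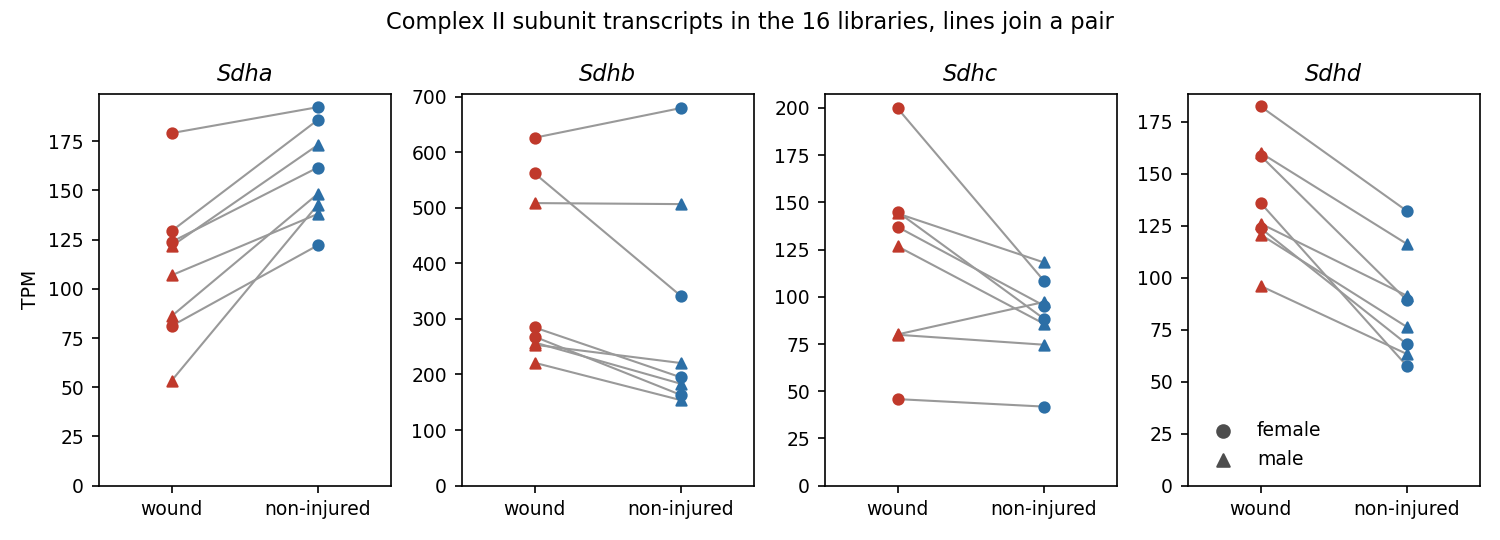
TPM (vertical axes) of the 4 complex II genes in wound libraries (red, left) and non-injured libraries (blue, right), with lines joining the 8 pairs, circles for females and triangles for males. The Sdha lines all go up towards the non-injured side, and the Sdhd lines all go down.

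Across the 84 nuclear members tested, exon length and fitted change had a Spearman correlation of -0.14, given as a description of genes that share the same libraries. Over 17886 protein-coding genes tested it was -0.12. The members that rose had a median exon length of 1716 bases and those not called 1423 bases, against 4047 bases for all protein-coding genes tested.

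In complex III, 3 of 8 nuclear members rose. Uqcrb, a small subunit at the ubiquinone site, lay between 117 and 777 TPM at the wound (median 235) and between 96.0 and 544 TPM on the other side (median 114), with the highest value of each side in the day 4 male libraries. It exceeded its partner in 7 of 8 pairs and rose by 1.17 (SE 0.24, adjusted p = 0.0113). Uqcr10 and Uqcrq rose by 1.11 and 1.03 (SE 0.31 each, adjusted p = 0.0400 and 0.0495). The larger core subunits Uqcrc2 and Uqcrc1 had changes of 0.64 (SE 0.22, adjusted p = 0.0812) and 0.49 (SE 0.26, adjusted p = 0.263) and were not called, nor was Uqcrfs1, the Rieske iron-sulfur protein (0.53, SE 0.27). The small subunits Uqcr11 and Uqcrh were not called either, at 0.86 and 0.64 (edgeR adjusted p = 0.110 and 0.187).

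In complex IV, 4 of 17 tested nuclear members rose. Cox5a lay between 126 and 484 TPM at the wound (median 280) and between 91.6 and 372 TPM on the other side (median 124), was higher in 8 of 8 pairs and rose by 1.24 (SE 0.27, adjusted p = 0.0151). Cox7b and Cox6b1 rose by 1.18 and 1.00 (SE 0.33 and 0.29, adjusted p = 0.0380 and 0.0448). Cox4i1, the most abundant nuclear member at the wound by median TPM, had 612 to 1260 TPM at the wound (median 751) and 312 to 2192 TPM on the other side (median 641), and its change of 0.77 (SE 0.34, adjusted p = 0.173) was not called. Cox8a, with medians of 506 TPM at the wound and 630 TPM on the other side, had the largest p of the nuclear members of the complex at a change of 0.12 (SE 0.38, adjusted p = 0.992), which turned below 0 with median-ratio scaling, DESeq2 and TPM.

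Several complex IV subunits have tissue-specific isoforms. Cox6a2, the form of heart and skeletal muscle, rose by 1.66 (SE 0.38, adjusted p = 0.0186), with 20.5 to 161 TPM at the wound (median 29.7) and 3.88 to 84.1 TPM on the other side (median 17.8). Its share of Cox6a1 plus Cox6a2 exceeded that of its partner in 8 of 8 pairs, at a median of 4.54% at the wound and 2.23% on the other side, and at 46.3% and 11.5% in day 14 females. The ubiquitous Cox6a1 had a change of 0.14 (SE 0.35, adjusted p = 0.950), which turned below 0 with median-ratio scaling. Cox7a1 and Cox8b, further muscle forms, were at 55.2 and 36.4 TPM at the wound and 90.3 and 60.6 TPM on the other side in day 4 males, and at most at 13.8 and 1.40 TPM in every other library. The muscle list named above was high in the same 2 libraries, and neither of these forms was called (Cox7a1 1.42, SE 0.77; Cox8b 0.99, SE 2.01). Cox4i2, the lung and low-oxygen form, made up 0% to 0.621% of Cox4i1 plus Cox4i2 at the wound and 0.0290% to 1.11% on the other side. Cox7a2 and the supercomplex factor Cox7a2l had changes of 0.84 (SE 0.32) and 0.68 (SE 0.22) and were not called.

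Cox6b2, a form best known from testis, had a median of 6.06 TPM at the wound and 3.10 TPM on the other side. The difference of its day 1 effect from the mean of later days had the smallest p among the members (log2 -4.58, unadjusted p = 0.00530, adjusted p = 0.472), with day effects of -2.59, 0.97, 2.35 and 2.65 at days 1, 4, 7 and 14. Ndufa4, counted with complex I by its symbol and known as a complex IV subunit, had a change of 0.60 (SE 0.31, adjusted p = 0.238). Its paralogue Ndufa4l2, a hypoxia-induced gene that is also strong in vascular mural cells, had 0 to 3.11 TPM at the wound (median 0.779) and 0.348 to 9.39 TPM on the other side (median 2.49), and its change of -1.29 (SE 0.68, adjusted p = 0.249) was called only without the day 14 female pair (-2.57, adjusted p = 0.0462) or when the 32 columns were taken as separate. Cox7b2 had at most 0.288 TPM at the wound and 5.91 TPM on the other side. Cox8c was at 0 TPM in every wound library and at most at 1.46 TPM on the other side.

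In complex V, 10 of 17 tested members rose. They included all 3 genes for the c subunit of the membrane rotor. Atp5g1 lay between 185 and 1169 TPM at the wound (median 350) and between 127 and 450 TPM on the other side (median 257) and rose by 1.23 (SE 0.25, adjusted p = 0.0110), highest at day 1 (day effect 2.05, unadjusted p = 0.00270). Atp5g2 and Atp5g3, which encode the same mature protein, rose by 0.98 and 0.96 (SE 0.28 each). Atp5g1 held 62.8% to 89.5% of the c-subunit TPM at the wound and 63.2% to 83.0% on the other side. Of the remaining small subunits, Atp5l, Atp5e, Atp5j2 and Atp5mpl rose by 1.10, 1.23, 1.02 and 1.40 (SE 0.27, 0.30, 0.25 and 0.36), and Atp5pb and Atp5o of the stator by 0.88 and 1.06 (SE 0.24 and 0.30). Atp5o has a second identifier in the files, which failed the filter, and how reads were shared between them is not known. Atp5md had a change of 0.70 (SE 0.36, adjusted p = 0.242) and was not called. The large catalytic subunits Atp5a1 and Atp5b, which form the ATP-making head, had changes of 0.52 (SE 0.25) and 0.60 (SE 0.30) and were not called (adjusted p = 0.214 and 0.223), whereas the shaft subunit Atp5c1 rose by 0.83 (SE 0.24, adjusted p = 0.0467). Many members have processed pseudogenes, which can share their reads. The 13 that fit the names held 0.197% to 0.478% of the nuclear members' counts.

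Promoters of the nuclear members were read to show what they share beyond their function. RefSeq promoters (GRCm38.p6, 300 bases from 250 before to 50 after a start site) were found for 68 nuclear member symbols. They were searched on both strands for CCGGAAG, bound by ETS factors such as GABPA, the palindrome bound by NRF1 (in capitals in the Cox6a1 stretch below), and AAGATGG, bound by YY1, all regulators known from respiratory chain genes. The end of CCGGAAG is the start of AAGATGG, so a stretch can hold both in overlap. CCGGAAG was present in 17 of 68 members (25.0%), against 9.93% of all 27025 genes of the table. The NRF1 palindrome was present in 5 (7.35%), against 1.07%, and AAGATGG in 11 (16.2%), against 7.28%. At least 1 of the 3 was present in 13 of the 22 members that rose and 17 of the 46 others, against 17.1% of all genes. These backgrounds count every gene with a promoter, whether or not it passed the low-count filter here, so they are not shares of expressed genes. Singly, among members that rose and the others, CCGGAAG was present in 7 of 22 and 10 of 46, AAGATGG in 5 of 22 and 6 of 46, and the NRF1 palindrome in 1 of 22 and 4 of 46. The stretches below lie upstream of the start site, outside annotated exons. The first 3 belong to members that rose and hold the ETS motif, and the last to Cox6a1, which was not called and holds the NRF1 motif. Capitals mark the motif, which on the printed strand of the first 3 reads as its reverse complement.
Atp5l, chr9:44920752-44920992, minus strand: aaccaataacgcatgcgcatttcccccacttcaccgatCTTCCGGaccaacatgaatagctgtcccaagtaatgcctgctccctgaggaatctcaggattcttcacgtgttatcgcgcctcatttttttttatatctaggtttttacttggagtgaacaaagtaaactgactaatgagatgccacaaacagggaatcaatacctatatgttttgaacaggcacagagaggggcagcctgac
Atp5e, chr2:174464106-174464351, minus strand: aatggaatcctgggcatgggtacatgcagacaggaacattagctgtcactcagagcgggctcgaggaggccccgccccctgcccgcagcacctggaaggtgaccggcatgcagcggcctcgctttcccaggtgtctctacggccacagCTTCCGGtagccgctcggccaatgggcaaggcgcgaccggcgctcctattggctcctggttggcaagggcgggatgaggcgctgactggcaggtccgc
Ndufb6, chr4:40279422-40279671, minus strand: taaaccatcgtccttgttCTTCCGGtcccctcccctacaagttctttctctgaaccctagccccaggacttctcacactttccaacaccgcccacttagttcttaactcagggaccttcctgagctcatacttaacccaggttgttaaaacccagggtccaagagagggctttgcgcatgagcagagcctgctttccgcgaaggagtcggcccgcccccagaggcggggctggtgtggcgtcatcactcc
Cox6a1, chr5:115348982-115349129, minus strand: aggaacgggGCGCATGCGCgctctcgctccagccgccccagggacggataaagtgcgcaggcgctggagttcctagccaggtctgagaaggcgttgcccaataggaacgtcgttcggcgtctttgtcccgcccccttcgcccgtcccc
A match is a run of letters in the window and does not show that a factor binds there.

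The third comparison took each day alone. No member was called at any day by edgeR. Of the nuclear members, 17, 12, 43 and 3 of 84 had an unadjusted p under 0.05 at days 1, 4, 7 and 14, which is 20.2%, 14.3%, 51.2% and 3.57%, against 15.4%, 14.8%, 19.1% and 16.5% of all genes. Genes called higher among all tested were 0.472% at day 1, 1.52% at day 4, 0.318% at day 7 and 0.0455% at day 14, and those called lower 0.58%, 0.521%, 0.0559% and 0.014%. The nuclear median was 0.93 at day 1, 0.83 at day 4, 1.27 at day 7 and 0.12 at day 14, and the mitochondrial median -0.66, -0.54, 0.03 and -0.42. The median over all genes was -0.05, -0.20 and -0.84 at days 1, 4 and 7, and near 0 at day 14. No mitochondrial member had an unadjusted p under 0.05 on any day. DESeq2 called 12, 0, 4 and 2 nuclear members and no mitochondrial one, and limma on log2 TPM called 1 nuclear member at day 1. Leaving out the day 4, day 7 and day 14 male pairs gave 43, 30 and 56 called nuclear members at days 1, 4 and 7, where the effects of days 4, 7 and 14 then rest on 1 pair each, assumed to vary like the 2 pairs of day 1. The count of 76 above has the same limit. Shares over all genes are not given for the single-day counts of DESeq2, limma and the fit without those male pairs. The authors' deposited table listed 7, 1, 3 and 4 of 86 nuclear members as higher on the 4 days. This is 8.14%, 1.16%, 3.49% and 4.65%, against 2.88%, 2.42%, 1.97% and 3.34% of all its genes. The latter shares count all 55385 identifiers, of which 28597 passed the low-count filter here, so they are not shares of expressed genes alone. Sdhc was given as higher at days 1, 4 and 7 and Sdhd at days 7 and 14. The authors' deposited table also listed Cox6b2 as lower at day 1, and mt-Nd4, mt-Co1 and mt-Nd1 as lower at day 4 (log2 -1.96, -1.91 and -1.84).

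The injury effect was not shown to differ between days for any member. Both the test of day 1 against the mean of later days and the test of any difference between the 4 days called 0 of 97 members, and 1 of 84 nuclear and 0 of 13 mitochondrial members had an unadjusted p under 0.05 in each, against 7.34% and 6.36% of all genes. DESeq2 called 0 as well. Nuclear effects of day 14 lay lowest (median 0.12), and none was called by edgeR (smallest adjusted p 0.205). Sdhd had a day effect of 1.10 (unadjusted p = 0.0248) and Cox6a2 one of 2.46 (unadjusted p = 0.0107) on that day. They are among the 3 of 84 nuclear members with an unadjusted p under 0.05 (3.57%), against 16.5% of all genes.

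Nuclear changes were larger in females on the fitted values, but no gene passed the test of the sex difference. It called 0 of 97 members and 0 of all genes after adjustment (smallest adjusted p among members 0.324, DESeq2 also 0). At an unadjusted p under 0.05, 63 of 84 nuclear members (75.0%) and 4 of 13 mitochondrial ones (30.8%) passed, all 63 with a larger change in females, against 7.32% of all genes. The median female-minus-male difference was 1.10 over nuclear and 1.05 over mitochondrial members on the log2 scale, and -0.10 over all genes. Fitted alone, the 4 female pairs gave 33 of 82 nuclear members as higher (3.77% of all genes), and the 4 male pairs gave 0 of 84 (1.64%). Nuclear pair medians were 0.39 to 1.83 in females and -0.16 to 0.62 in males. The 3 non-injured libraries with the highest neuronal sums are all male, and they also hold 3467, 1824 and 1207 CPM of astrocyte markers. In these libraries sex and RNA of neurons or astrocytes thus cannot be told apart.

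Genes around the chain were read from lists chosen with earlier results known, on the mean of the 4 day effects and the background of 7.76% higher and 7.96% lower. Of 45 tested assembly factors 1 rose (Coa3, a complex IV assembly factor, 0.88), with a list median of 0.39. Of 28 tested genes for expression of the mitochondrial genome 4 rose and 0 fell (median 0.34). Slirp, which stabilises mitochondrial mRNA, rose by 1.34 (SE 0.22, adjusted p = 0.00408), Pnpt1, an RNA-processing enzyme of mitochondria, by 1.22 and Fastkd2, an RNA-binding protein of mitochondria, by 1.00, each higher in 8 of 8 pairs. Tsfm, an elongation factor of mitochondrial translation, was the remaining one (0.93), and Tfam, the packaging and transcription factor of mitochondrial DNA, was not called. Of 16 regulators of mitochondrial biogenesis 0 rose and 1 fell. This was Ppargc1a, the coactivator PGC-1alpha, which had a log2 change of -2.41 (SE 0.41, adjusted p = 0.00425), with a mean of 1.48 CPM at the wound and 7.43 CPM on the other side, lower in 8 of 8 pairs. Ppargc1a is also expressed by neurons, whose markers were lower in the same 8 pairs, and their part in this was not tested. Of 18 citric acid cycle genes 1 rose (Mdh2, malate dehydrogenase, 0.91). Of 21 tested glycolysis genes 11 rose and 3 fell (median 0.77). Pkm, Ldha and Pgk1 rose by 2.05, 1.83 and 1.85, each in 8 of 8 pairs. The genes that fell were Eno2, Pfkm and Ldhb, of which Eno2 is the neuronal enolase. Of 17 genes for electron carriers and uncoupling 5 rose. Ucp2, an inner-membrane carrier, rose by 1.72 (SE 0.19, adjusted p = 0.000663), Coq7, an enzyme of ubiquinone synthesis, by 1.32 and Slc25a5, the ADP/ATP carrier, by 0.72. The median over all genes was -0.32, so every list median named here except that of the biogenesis regulators (-0.37) lay above it.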

How the data were processed

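Per the labels' protocols, RNA of sorted cells was reverse transcribed with SMART-Seq v4 and made into libraries with Nextera XT, which does not keep the strand. Per the submitters' processing notes, Salmon 1.0.0 and DESeq2 1.26.0 were used; the build is not given in the sources used here, nor is the annotation. The authors deposited expected counts per gene, not normalized (12.7% of values not whole), and TPM values scaled to 1000000 per column; TPM keeps no depth. The authors' deposited comparison tables hold log2 fold changes and adjusted p-values. All 32 columns were used and 0 left out. Members and lists were chosen with earlier results of these data known.

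The 2 columns of each group were summed and rounded, and TPM averaged. The sums went into edgeR 4.0.16 under R 4.3.3 (TMM factors, quasi-likelihood, minimum count of 10, 28597 genes), with 8 pair means and 4 day effects, 4 residual degrees of freedom, and a sex-by-injury term for the sex comparison; DESeq2 1.42.0 and limma 3.58.1 (log2 of TPM + 1) were alternatives. A call needed an adjusted p (Benjamini-Hochberg, every tested gene included) under 0.05. Each SE was obtained by dividing the log2 change by the root of its F statistic. Coordinates and exon lengths are from GENCODE M21 (GRCm38). The fit was also run on simulated counts with a fixed spread and no sex difference of the injury effect. That run cannot show that the fit suits these data. Named genes were all mitochondrial members, per complex the 4 genes with the lowest p (averaging 10 CPM or more), the 2 largest differences of day 1 from later days and the largest p, fixed isoform groups, and up to 3 called genes per list. Ndufa12, Ndufs4, Ndufs6, Atp5a1, Atp5b, Atp5c1, Atp5mpl, Atp5pb, Atp5o, Uqcrfs1, Uqcr11, Uqcrh, Tsfm, Eno2, Pfkm, Ldhb, Tfam, Ndufs3, Ndufs7, Ndufs8 and Ndufv2 were added after their values were seen. One item is not reported here. Correlations between equal replicate numbers on both sides were -0.04 to 0.05 over 8124 genes, so the numbers were not taken as pairing.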

Additional observations from a re-analysis of the deposited data

Results flagged for a closer look

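Of 111 sets of 8 libraries tested with Dixon's rule, 40 had a highest library that lay apart from the others by more than 0.526 of the range. Chance flags about 1 in 20 groups of normally distributed values. All 40 flags lay at the highest end and the sets share libraries, so that rate need not hold here. Of the 40, 38 lie in the day 4 male pair, whose muscle and neuronal marker sums are given with the libraries, and the part of those RNAs was not tested.

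In the day 4 male wound library, 14 members stood apart in TPM. They were Uqcrb at 777, Cox7b at 299, Cox7a1 at 55.2, Cox8a at 1454, Cox8b at 36.4, Ndufa4 at 594, Atp5l at 722, Atp5md at 1007, Atp5g2 at 103 and Atp5g3 at 245 TPM. The mitochondrial ones were mt-Nd3 at 3281, mt-Co3 at 4548, mt-Co2 at 7516 and mt-Nd2 at 2731 TPM.

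In the non-injured library of the same day and sex, 24 values stood apart. The summed mitochondrial TPM was 319726. Nuclear members were Uqcrb at 544, Cox6a2 at 84.1, Cox7b at 286, Cox7a1 at 90.3, Cox8a at 3828, Cox8b at 60.6, Cox4i1 at 2192, Cox7a2 at 539, Ndufa4 at 825, Atp5l at 594, Atp5md at 1697 and Atp5g3 at 213 TPM. Mitochondrial ones were mt-Nd1 at 32871, mt-Nd2 at 8969, mt-Nd3 at 14494, mt-Nd4 at 14916, mt-Nd4l at 1374, mt-Nd5 at 3646, mt-Nd6 at 3108, mt-Co1 at 27540.0, mt-Co2 at 26471, mt-Co3 at 12821 and mt-Atp6 at 115720.0 TPM.

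The day 14 female wound library stood apart for Cox6a2 at 161 TPM and mt-Cytb at 35171 TPM. No member had every female pair on one side of 0 and every male pair on the other.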

How the results depend on the processing

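The nuclear-minus-mitochondrial difference stayed above 0 under the alternatives run, at 0.996 to 1.18, and at 1.02 to 1.24 with single pairs or replicates left out. Calls of single genes depended far more on the processing. Counts below are of members alone, and shares over all genes are given above where they were taken.

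Of the nuclear members on the mean of 4 days, 18 of 86 were called without the low-count filter, 48 of 84 by DESeq2, 13 of 84 by limma on log2 TPM, 0 of 84 in male pairs alone and 76 of 83 without the day 4, 7 and 14 male pairs (the last 2, like the fit of female pairs alone, were chosen after seeing the data). Leaving out single pairs or replicates gave 0 to 61 nuclear and 0 to 7 mitochondrial calls. Mitochondrial calls were 1 by DESeq2 and 3 by limma. At day 1, nuclear calls were 1 with median-ratio factors, 12 by DESeq2, 1 by limma and 43 without those male pairs, and 0 to 4 leaving out 1. At day 4 they were 30 without those male pairs, with 0 to 1 mitochondrial calls leaving out 1. At day 7 they were 4 by DESeq2 and 56 without those male pairs, and 0 to 1 leaving out 1. At day 14 they were 2 by DESeq2.

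The replicate numbers did not pair the sides. Taking the 32 columns as samples with a replicate block gave 48, 35, 58 and 5 nuclear calls at days 1, 4, 7 and 14, and 71 nuclear and 7 mitochondrial calls on the mean. With no replicate block the counts were 67, 50, 69 and 9, and 76 and 9, with 6 and 3 mitochondrial calls at days 1 and 4. These columns are near copies, so such p-values are too small.

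Signs turned for members near 0. With limma, Ndufv1 was at -0.30, Uqcrc1 at -0.0023, Cox8a at -0.33, Cox6a1 at -0.33 and Cox8b at -0.13. With median-ratio factors, which moved the median of all genes by -0.13, Cox8a was at -0.019 and Cox6a1 at -0.0041, and with DESeq2 Cox8a was at -0.012. Without the filter, Sdha was at 0.071, mt-Nd3 at 0.043 and mt-Co3 at 0.031. Leaving out 1 pair or replicate, ranges that cross 0 were -0.032 to 0.51 for Ndufv1, -0.32 to 0.29 for Sdha, -0.28 to 0.51 for Cox8a, -0.21 to 0.46 for Cox6a1, -1.74 to 0.59 for Cox4i2, -0.48 to 0.40 for mt-Nd3, -0.54 to 0.44 for mt-Co3, -0.56 to 0.0081 for mt-Atp8, -0.70 to 0.25 for mt-Co1 and -3.13 to 0.34 for mt-Nd4l. The cause was not tested. For single genes, 284 values under other settings kept direction and side of the threshold, 44 newly passed it, 18 no longer did and 11 turned sign.

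With 8 pairs and 4 residual degrees of freedom, single days rest on 2 pairs each, and a member not called there was not shown to be unaffected. Low members such as Cox7b2 and Cox8b are limited by depth.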
